A study of Mus musculus with 81 samples.

Results

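Expression of 31 genes of cholesterol synthesis, uptake and export was examined in 3 populations of hippocampal neurons of Ts65Dn (Ts) mice and their disomic (2N) littermates. The members were taken by name, 19 enzymes of the synthesis pathway and 12 regulators and transport genes, out of 57010 genes with a value in each library. All 31 were found, and all 31 passed the filter on low values in every comparison. CA1 pyramidal neurons (PNs), CA3 PNs and dentate gyrus granule cells (DGCs) were microisolated by laser capture from Nissl-stained sections of the rostral hippocampus and sequenced as total RNA, 1 library per population and mouse. The 28 mice were males of about 6 months old (MO). Ts mice carry a freely segregating mini-chromosome with a partial triplication of mouse chromosome 16 (Mmu16) and a centromeric segment of Mmu17, in the neurons and in every other cell of the body. Dams were Ts65Dn females mated to C57Bl/6J Eicher × C3H/HeSnJ F1 males, so the offspring of both genotypes were of mixed background. From conception to weaning they were exposed to the dam's diet, either choline normal (ChN, 1.1 g/kg choline chloride) or choline supplemented (ChP, 5.0 g/kg), and all were on the normal diet afterwards. No member lies on Mmu16. Acat2 and Abcg1 lie on Mmu17, from bases 13161367 and 31276649 of the GRCm39 build, and the extent of the triplicated segment was not determined here.

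Cholesterol does not cross the blood-brain barrier, so the brain makes its own. Acetyl-CoA is built up to mevalonate, to isoprenoid pyrophosphates, to squalene and, by ring closure and trimming of lanosterol, to cholesterol. SREBP2, the product of Srebf2, is held in the endoplasmic reticulum by Scap and the Insig proteins when sterol is plentiful. When sterol is low it is cleaved, enters the nucleus and switches on the genes of the synthesis enzymes. Neurons lose cholesterol through Cyp46a1, the hydroxylase whose product leaves the brain, and through the exporters Abca1 and Abcg1, which are targets of the liver X receptors. Adult neurons are known to draw on cholesterol made by astrocytes, and oligodendrocytes use large amounts for myelin.

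There were 6, 5, 7 and 9 libraries of CA1 PNs (2N ChN, Ts ChN, 2N ChP and Ts ChP, in that order), 6, 6, 7 and 7 of CA3 PNs and 6, 6, 7 and 9 of DGCs. Totals ran from 358355 to 4744036 expected counts, and 9 of the 31 members had a median expected count under 10 over the 81 libraries. The labels were checked with lists of marker genes, each scored as the mean log2 of its CPM, counts scaled to the size of the library. The triplicated genes scored 5.28 to 5.73 in 38 of the 2N libraries and 5.82 to 6.38 in all 42 Ts libraries. The CA1 library of mouse 17-154, labelled 2N, scored 6.09. The CA3 library of mouse 15-145, labelled Ts but counted here as 2N like the other libraries of that mouse, scored 5.69. The CA1 markers scored 6.09 to 7.81 in 24 CA1 libraries but 2.55 in mouse 17-21 (2N ChN), 2.48 in 16-272 (Ts ChP) and 4.74 in 15-336 (2N ChP). The CA3 library of 15-140 (Ts ChP) scored 5.09 for dentate markers, which were at most 3.14 in the other libraries outside the dentate gyrus. Markers of CA2, the neighbouring field, scored 5.74 to 7.91 in 10 CA1 libraries (2 of 6 2N ChN, those of 17-21 and 17-154, 1 of 5 Ts ChN, that of 16-357, 3 of 7 2N ChP and 4 of 9 Ts ChP), against 1.64 to 3.23 in the other 17 and at most 3.94 in CA3 PNs and DGCs. In bulk samples such as these, fewer cells of a type and less RNA per cell cannot be told apart.

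Each population was first described by its 2N ChN mice, in TPM, a transcript abundance corrected for length and depth that allows levels to be compared between genes. In CA3 PNs, Srebf2 was at 35.4, 86.4 and 119.6 TPM (lowest, median and highest of 6 mice). Hmgcs1, which makes HMG-CoA, was at 30.5, 74.9 and 102.58 TPM. Msmo1, the sterol methyl oxidase that trims lanosterol, was at 23.1, 43.2 and 67.6 TPM. These were the 3 highest medians of the 31 members, and their ranges overlapped. All 3 lowest values came from mouse 15-145, whose CA3 library carries the other label, and the lowest of the other 5 mice were 64.7, 53.9 and 33.2 TPM. That library was the lowest of the 6 in TPM for every member but Idi1, Lss, Cyp51, Tm7sf2, Nsdhl and Nr1h2. In CPM the lowest Hmgcs1 value of this group was that of mouse 17-21 (160.8 CPM against 187.6 to 202.5 CPM in the others). The lowest medians in CA3 PNs were those of Tm7sf2 (0, 3.86 and 8.32 TPM), a sterol reductase, Idi1 (1.63, 3.44 and 5.02 TPM), the isopentenyl isomerase, and Npc2 (1.72, 2.54 and 3.65 TPM), which moves cholesterol out of the lysosome.

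In CA1 PNs the order began with Srebf2 (26.6, 45.1 and 59.8 TPM), Cyp46a1 (15.2, 31.4 and 49.1 TPM) and Hmgcs1 (17.6, 29.8 and 41.0 TPM). It ended with the sterol dehydrogenase Nsdhl (0.92, 1.98 and 2.77 TPM), Npc2 (0.32, 1.87 and 2.24 TPM) and Stard4 (0.37, 1.0 and 2.49 TPM), a carrier of sterol through the cytosol. In DGCs, Cyp46a1 had the highest median (34.9, 48.0 and 66.9 TPM), followed by Srebf2 (27.1, 42.0 and 55.2 TPM) and Scap (17.2, 40.3 and 46.2 TPM). Mvd, the mevalonate diphosphate decarboxylase (0, 1.86 and 3.54 TPM), Idi1 (0, 0.74 and 1.74 TPM) and Stard4 (0, 0.56 and 2.31 TPM) were the lowest. Neighbours in these orders overlapped in their ranges and are not set apart by these libraries. Srebf2 was among the highest in all 3 populations, while Cyp46a1 led in DGCs and was 9th in CA3 PNs, at a median of 24.7 TPM.

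**Figure D1:**
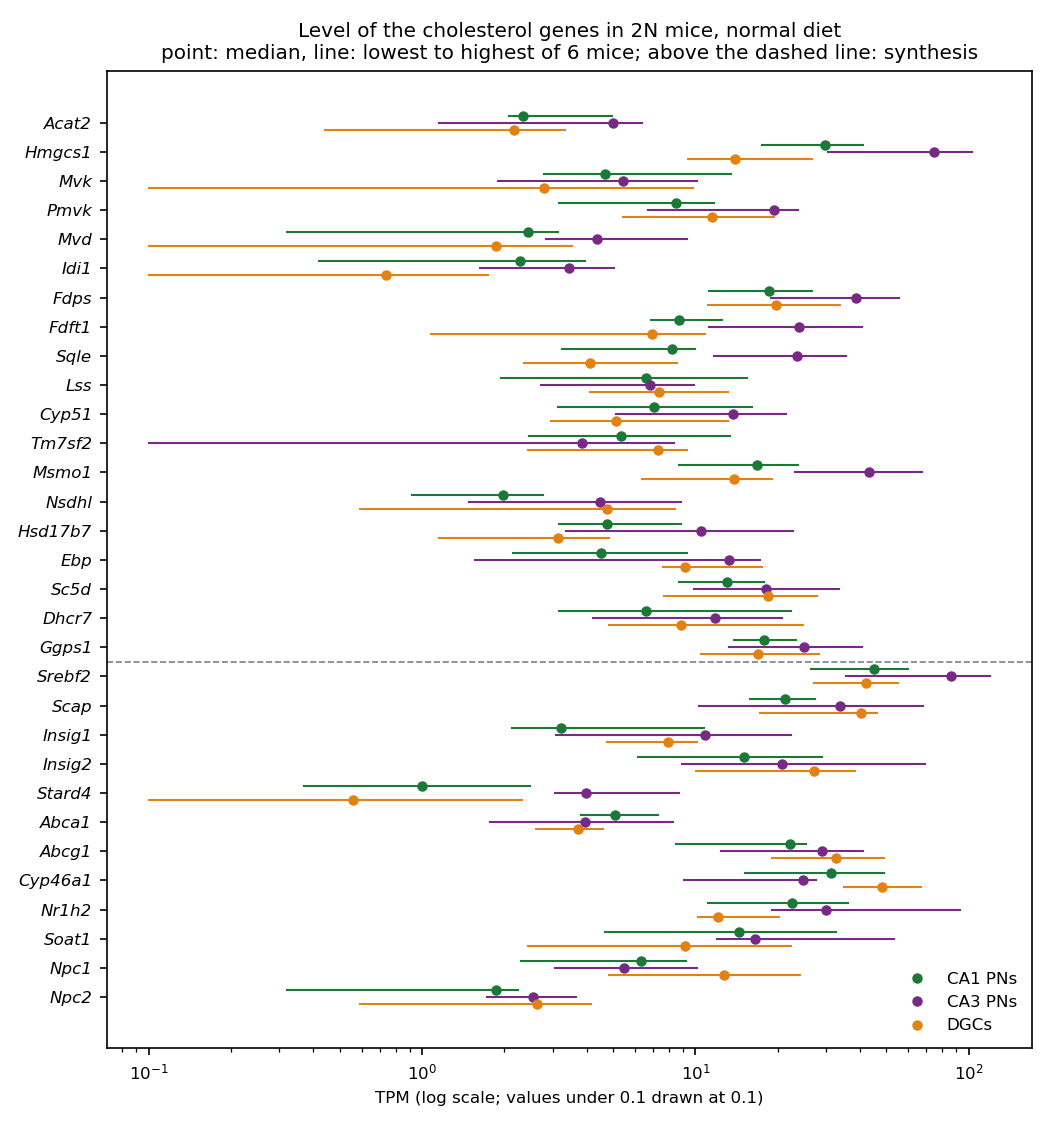
Level of each member in 2N ChN mice in TPM on a log axis, by population, as the median (point) and the lowest to the highest of 6 mice (line), with synthesis enzymes above the dashed line. The CA3 PN medians of Srebf2, Hmgcs1 and Msmo1 lie farthest to the right of that population, and Stard4 is the lowest member of CA1 PNs and DGCs.

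Between populations, most synthesis enzymes were higher in CA3 PNs than in DGCs, and many were higher in CA3 PNs than in CA1 PNs. With an adjusted p below 0.05 as the call, 20 of the 31 members differed between CA3 PNs and DGCs of 2N ChN mice, against 43.7% of all genes tested. Of these, 17 were higher in CA3 PNs, against 21.9% of all genes tested. They comprised 12 of the 19 synthesis enzymes and 5 of the 12 regulators and transport genes. The median log2 fold change (LFC, CA3 PNs over DGCs) was 0.77 for the members and 1.06 for the synthesis enzymes, beside -0.04 for all genes tested.

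Stard4 had the largest difference, with an LFC of 3.40 (SE 0.385, adjusted p = 2.77e-09), but its DGC level was close to 0. Sqle, the epoxidase that commits squalene to the sterol branch, was higher in CA3 PNs by 2.78 (SE 0.198, adjusted p = 1.87e-14). Hmgcs1 was higher by 2.71 (SE 0.145, adjusted p = 6.36e-18), with CA3 PN levels of 30.5 to 102.58 TPM against 9.43 to 26.65 TPM in DGCs, which did not overlap. Msmo1 (LFC 2.13 ± 0.194) and Fdft1 (LFC 2.01 ± 0.216), the squalene synthase, were also higher in CA3 PNs, as were Hsd17b7, Idi1, Mvd, Acat2, Cyp51, Fdps, Dhcr7 and Pmvk at LFCs from 0.77 to 1.72. The 7 synthesis enzymes that did not pass were Mvk, Lss, Tm7sf2, Nsdhl, Ebp, Sc5d and Ggps1. For Lss, the lanosterol synthase that closes the ring, the LFC was -0.05 with an SE of 0.236, between the called enzymes Sqle and Cyp51 in the pathway.

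Among the regulators, Srebf2 was higher in CA3 PNs than in DGCs (LFC 1.31, SE 0.111, adjusted p = 1.99e-12), and so were Insig1, Nr1h2 (the liver X receptor beta) and Soat1, which esterifies cholesterol. The 3 called members on the route out of the cell or the lysosome went the other way. Cyp46a1 was higher in DGCs, with an LFC of -0.96 (SE 0.15, adjusted p = 1.90e-06), as were Npc1, the lysosomal exporter (LFC -0.66 ± 0.192), and Abcg1 (LFC -0.30 ± 0.107). Neither Abca1, Npc2, Scap nor Insig2 passed the test in this comparison.

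Of the 31 members, 13 differed between CA1 PNs and CA3 PNs, against 23.3% of all genes tested, and 11 of the 13 were lower in CA1 PNs. The median LFC (CA1 PNs over CA3 PNs) was -0.41, beside 0 for all genes. Stard4 fell by 2.12 (SE 0.335), Sqle by 1.5 (SE 0.175), Fdft1 by 1.14 (SE 0.202), Msmo1 by 1.03 (SE 0.176), Hmgcs1 by 0.92 (SE 0.129) and Srebf2 by 0.49 (SE 0.107) on the log2 scale. Cyp46a1 and Abca1 were higher in CA1 PNs than in CA3 PNs (LFC 0.83 ± 0.152 and 0.52 ± 0.177), but the call of Abca1 was lost without 17-154 (LFC 0.41 ± 0.186, adjusted p = 0.123). Between CA1 PNs and DGCs 13 members differed, against 34.3% of all genes. Of these, 11 were higher in CA1 PNs, led by Hmgcs1 (LFC 1.79 ± 0.149), while Abcg1 and Npc1 were lower (LFC -0.46 ± 0.111 and -0.71 ± 0.206). The share of members called in CA1 PNs against DGCs was close to that of all genes, and the median LFC was 0.42, beside -0.03 for all genes. Without the CA1 library of 17-21 the counts were 14 against CA3 PNs and 13 against DGCs, and without that of 17-154 they were 13 and 11. The calls of Idi1 and Stard4 between CA1 PNs and DGCs were lost without either library.

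Scaling by library totals in place of TMM lowered the median of all genes to -0.17 (CA1 PNs over DGCs) and -0.24 (CA3 PNs over DGCs), and the members' medians were then 0.29 and 0.57. Markers of other cells moved with these differences. Of 8 oligodendrocyte markers, 7 were higher in CA3 PNs than in DGCs (median LFC 2.04) and 7 were higher in CA3 PNs than in CA1 PNs. Their summed level was 316, 372 and 489 CPM in CA3 PNs (lowest, median and highest of 6), 124, 190 and 289 CPM in CA1 PNs and 158, 181 and 233 CPM in DGCs, where the defining myelin marker Mog had a median of 0. Summed astrocyte markers were at 245 to 370 CPM in CA3 PNs, 204 to 298 CPM in CA1 PNs and 172 to 222 CPM in DGCs, with 6 of 8 higher in CA3 PNs than in DGCs. Both cell types make cholesterol, and the part of these cells in the difference was not tested. In Ts ChN mice the counts of members called were 15, 11 and 22 for CA1 PNs against CA3 PNs, CA1 PNs against DGCs and CA3 PNs against DGCs. These counts are given without the share of all genes called in Ts mice, so no excess of members is read from them.

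The question of the series is how trisomy changes gene expression in each population, and CA3 PNs on the normal diet held the most DEGs among the cholesterol genes. At an unadjusted p below 0.05, the threshold by which the study calls a differentially expressed gene (DEG), 12 of the 31 members were DEGs, against 9.20% of all genes tested. All 12 were higher in Ts, against 4.90% of all genes tested. They were 7 of the 19 synthesis enzymes and 5 of the 12 regulators and transport genes. After adjustment over all genes 3 members passed, against 0.662% of all genes. The median LFC (Ts over 2N) was 0.21 for the members, 0.24 for the synthesis enzymes and 0.14 for the others, beside 0 for all genes.

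Hmgcs1 was the clearest. It measured 243, 256 and 269 CPM in the 6 Ts libraries (lowest, median and highest, scaled by TMM within the population) and 161, 193 and 202 CPM in the 6 2N libraries. Every Ts library was above every 2N library, and the lowest 2N value came from mouse 17-21. The LFC was 0.43 (SE 0.073, adjusted p = 2.26e-04), a 1.35-fold difference. Fdft1 measured 85.1, 100.4 and 119 CPM in Ts and 54.1, 72.3 and 89.2 CPM in 2N. Here 4 of 6 Ts libraries lay above all 2N libraries and the other 2 above the 2N median, with an LFC of 0.47 (SE 0.11, adjusted p = 0.0222). Msmo1 measured 57.9, 73.5 and 88.5 CPM in Ts and 44.2, 46.1 and 61.7 CPM in 2N. Again 4 of 6 Ts libraries exceeded all of 2N, and the LFC was 0.50 (SE 0.119, adjusted p = 0.0226).

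The other synthesis enzymes that rose in Ts CA3 PNs were Mvd, Fdps, Lss and Dhcr7, which passed only before adjustment. Dhcr7, the reductase of the last steps, measured 22.8, 27.9 and 36.2 CPM in Ts and 12.4, 18.3 and 27.5 CPM in 2N (LFC 0.54, SE 0.177, adjusted p = 0.208). Lss measured 19.1, 21.8 and 32.9 CPM in Ts and 10.8, 16.1 and 21.4 CPM in 2N (LFC 0.51, SE 0.194, adjusted p = 0.344). For both genes 4 of 6 Ts libraries lay above all 2N libraries and all 6 above the 2N median. Mvd measured 7.21, 13.2 and 17.8 CPM in Ts and 3.56, 8.37 and 12.4 CPM in 2N (LFC 0.67, SE 0.271, adjusted p = 0.383). It split the Ts group, with 4 libraries above all of 2N and 2 below the 2N median. Fdps, which makes the farnesyl pyrophosphate shared by sterol and protein prenylation, had an LFC of 0.30 (SE 0.145, adjusted p = 0.512). Its Ts range of 35.4 to 62.9 CPM passed that of 2N (25.6 to 41.8 CPM) in 1 library, that of mouse 16-357.

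The 5 DEGs outside the synthesis pathway were a regulator of transcription, its retention factor, 2 sterol carriers and the brain hydroxylase. Srebf2, whose product drives these enzymes, measured 270.4, 282 and 319 CPM in Ts and 213, 241 and 271 CPM in 2N. Of 6 Ts libraries 5 were above all 2N libraries, at an LFC of 0.24 (SE 0.071, adjusted p = 0.148). Npc2 was low and rose by the largest ratio, from 3.90, 8.07 and 13 CPM in 2N to 8.91, 13 and 16.9 CPM in Ts (LFC 0.76, SE 0.263, adjusted p = 0.262). Of 6 Ts libraries 3 were above all of 2N and the other 3 overlapped it. Stard4 measured 26.2, 31 and 33.6 CPM in Ts and 13.9, 22.9 and 28.1 CPM in 2N (LFC 0.39, SE 0.162, adjusted p = 0.409). Cyp46a1 measured 36.6, 42.9 and 56.0 CPM in Ts and 29.2, 35.8 and 41.2 CPM in 2N, with 5 of 6 Ts libraries above all of 2N (LFC 0.32, SE 0.133, adjusted p = 0.422). For Insig2, which holds the Scap and SREBP2 complex back, 5 of 6 Ts libraries were also above all of 2N, at 29.4 to 40.7 CPM in Ts and 17.0 to 30.4 CPM in 2N (LFC 0.32, SE 0.153, adjusted p = 0.507).

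**Figure D2:**
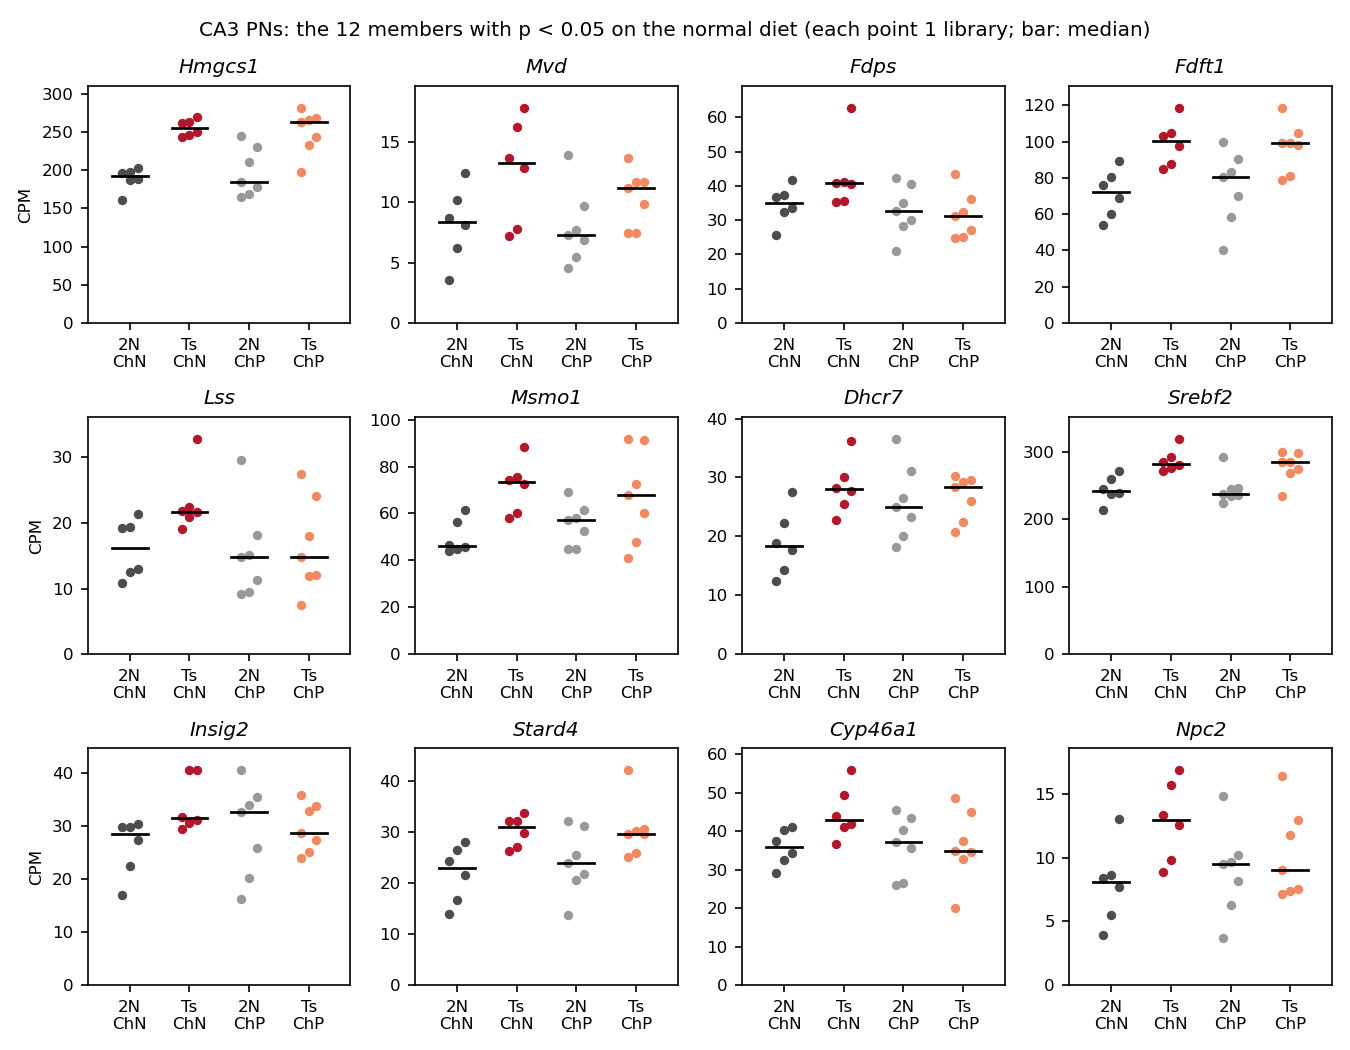
CPM of the 12 members with an unadjusted p below 0.05 between Ts and 2N in CA3 PNs on the normal diet, 1 point per library in each of the 4 groups, with the median as a bar. On the normal diet the Ts and 2N points of Hmgcs1 do not overlap, while those of the other 11 do, and in the ChP groups all 12 overlap. The 12 were chosen by p in these same normal-diet libraries, and the share of all genes without overlap was not counted.

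The other 19 members did not pass the test in CA3 PNs. Their LFCs ran from -0.41 to 0.46 with a median of -0.01. Pmvk, the phosphomevalonate kinase (LFC -0.41, SE 0.207), Ggps1, the geranylgeranyl pyrophosphate synthase at the branch away from sterols (LFC -0.26, SE 0.14), and Abca1 (LFC -0.28, SE 0.155) had the largest negative values among them, and Sqle (LFC 0.19, SE 0.11) and Nsdhl (LFC 0.46, SE 0.271) had positive values. The acetyltransferase Acat2, the kinase Mvk, Idi1, the lanosterol demethylase Cyp51, the late enzymes Tm7sf2, Hsd17b7, Ebp and Sc5d, and Scap, Insig1, Abcg1, Nr1h2, Soat1 and Npc1 complete the list.

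The count of 12 DEGs ranged from 8 to 14 over the alternatives tried, and the adjusted count from 1 to 3. With the CA3 library of 15-145 under its own label (Ts), 11 members were DEGs, 10 higher and 1 lower, and Lss, Cyp46a1 and Fdps were no longer among those higher. Hmgcs1, Fdft1, Msmo1, Srebf2, Dhcr7 and Npc2 kept p below 0.05 in all 22 alternatives, while the call was lost in 1 for Stard4 (without 17-21), 2 each for Lss and Mvd, 4 for Cyp46a1, 9 for Insig2 and 12 for Fdps. The adjusted count was 1, Hmgcs1 alone, without 17-153, 17-157, 17-192 or 17-21. Oligodendrocyte markers held 0 DEGs of 8, with a summed level of 264, 376 and 460 CPM in Ts and 316, 372 and 489 CPM in 2N. Of 8 astrocyte markers, 3 were lower in Ts (summed 223, 283 and 328 CPM against 245, 311 and 370 CPM), and of 7 inhibitory neuron markers 5 were lower (130, 160 and 176 CPM against 147, 274 and 412 CPM). None of these markers had a median of 0. With the astrocyte and oligodendrocyte scores as covariates 13 members were DEGs, 11 higher and 2 lower (Ggps1 and Abca1), and the LFC of Hmgcs1 was 0.44 (SE 0.078). The part of inhibitory neurons was not tested.

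Promoters of the 3 members that hold the core of a sterol regulatory element, the sequence that SREBP2 binds, are printed here. All 3 were among the 12 members that were DEGs in CA3 PNs on the normal diet. Whether genes with a core were called more often than others was not tested. Of the 31 members, 25 had a promoter in the RefSeq table (GRCm38.p6, 250 bases before to 50 after the start). Fdps, Fdft1, Sqle, Stard4, Abcg1 and Npc1 were not matched. The core was searched as TCACNCCA on both strands and was found in 3 of the 25 genes (12%), against 4.97% of 27025 genes in the table. The other DEGs of CA3 PNs with a promoter in the table, Mvd, Lss, Dhcr7, Cyp46a1, Insig2 and Npc2, held no core. CCAAT, the box of the cofactor NF-Y, was found on either strand in 21 of 25 (84%), in 15 of the 16 synthesis enzymes and in 41.1% of all genes. The motifs share no letters in the sequences below, in which capitals mark both (ATTGG is CCAAT on the other strand). Each runs 5′ to 3′ toward the start of transcription over the 250 bases before it, with the core beginning 137 bases upstream in Hmgcs1 (chr13:119690101-119690350, plus strand), 177 in Msmo1 (chr8:64733579-64733828, minus strand) and 162 in Srebf2 (chr15:82147019-82147268, plus strand).
Hmgcs1: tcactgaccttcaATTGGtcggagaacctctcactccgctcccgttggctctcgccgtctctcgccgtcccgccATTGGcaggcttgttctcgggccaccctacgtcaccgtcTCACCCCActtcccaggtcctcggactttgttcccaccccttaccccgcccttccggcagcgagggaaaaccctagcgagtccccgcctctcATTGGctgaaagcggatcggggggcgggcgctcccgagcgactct
Msmo1: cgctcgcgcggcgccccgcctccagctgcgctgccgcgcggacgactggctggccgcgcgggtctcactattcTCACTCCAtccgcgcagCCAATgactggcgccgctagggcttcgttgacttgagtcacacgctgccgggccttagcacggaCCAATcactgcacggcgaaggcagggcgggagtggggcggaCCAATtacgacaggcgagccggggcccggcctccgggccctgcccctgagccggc
Srebf2: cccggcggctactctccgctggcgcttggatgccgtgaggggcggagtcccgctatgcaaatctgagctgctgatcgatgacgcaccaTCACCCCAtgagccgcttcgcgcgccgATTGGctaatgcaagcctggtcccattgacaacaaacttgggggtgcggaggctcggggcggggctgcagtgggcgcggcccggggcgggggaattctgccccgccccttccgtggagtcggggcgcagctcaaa
Hmgcs1 and Msmo1 each held 3 CCAAT boxes in this window and Srebf2 held 1. A match of letters is a description of the window, and binding was not measured.

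In DGCs on the normal diet 3 of the 31 members were DEGs, against 8.50% of all genes tested, a share close to the background. All 3 were higher in Ts. Sqle measured 9.59, 15.2 and 19.9 CPM in Ts and 5.24, 9.73 and 15.2 CPM in 2N (LFC 0.58, SE 0.275, adjusted p = 0.566). Lss measured 22.6, 26.0 and 29.2 CPM in Ts and 14.0, 17.1 and 30.0 CPM in 2N (LFC 0.42, SE 0.205, adjusted p = 0.568). Srebf2 measured 113, 132 and 153 CPM in Ts and 96.5, 107 and 151 CPM in 2N (LFC 0.22, SE 0.105, adjusted p = 0.566). The groups overlapped for all 3 genes, and for Srebf2 the highest 2N value was that of mouse 17-56, apart from the other 2N values of 96.5 to 110.8 CPM. The members' median LFC was 0.14, beside 0.00 for all genes. Without 15-145 or without 15-147 (both 2N) the count was 0 of 31. DESeq2 called none of the 31, and with the astrocyte and oligodendrocyte scores as covariates 1 was called, Sc5d, which was lower in Ts (LFC -0.52, SE 0.24). The call was lost in 10 of 21 alternatives for Sqle and in 12 each for Lss and Srebf2, whose LFC ran from 0.04 with the glial covariates to 0.31 without 17-56. Of the 12 DEGs of CA3 PNs, 10 had an LFC above 0 in DGCs and 2 were DEGs, with a median of 0.23. Of the other 19 members, 13 had an LFC above 0 in DGCs, with a median of 0.09. The same mice gave both populations, so these directions are not independent of the calls in CA3 PNs.

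CA1 PNs on the normal diet gave 1 DEG among the 31 members, against 3.77% of all genes tested. Cyp46a1 measured 73.4, 81.7, 85.6, 106 and 116 CPM in the 5 Ts libraries and 52.1, 64.1 and 98.3 CPM in the 6 2N libraries, and 2 Ts libraries were above all of 2N (LFC 0.43, SE 0.173, adjusted p = 1). Srebf2 measured 189, 192, 196, 208 and 240.0 CPM in Ts and 161, 170.4 and 209 CPM in 2N, and the difference did not pass (LFC 0.15, SE 0.115). The median LFC of the members was 0.08, beside -0.01 for all genes. The count was 0 without 15-147, 16-357 or 17-173, 2 without 17-153 or 17-56 and 3 without 17-157. Without 17-21, whose CA1 markers were low, 4 members were DEGs (Cyp46a1, Stard4 and Insig2 higher, Abca1 lower), and without 17-154, whose triplicated genes were at the Ts level, Cyp46a1 was again the 1 DEG (LFC 0.42, SE 0.188). With the CA2 score as a covariate 2 were DEGs, Cyp46a1 (LFC 0.43, SE 0.156) and Stard4. Of the 12 DEGs of CA3 PNs, 9 had an LFC above 0 in CA1 PNs and 1 was a DEG, with a median of 0.19. Of the other 19 members, 11 had an LFC above 0 in CA1 PNs, with a median of 0.05. Here too the same mice gave both populations, so the directions are not independent of the calls in CA3 PNs.

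**Figure D3:**
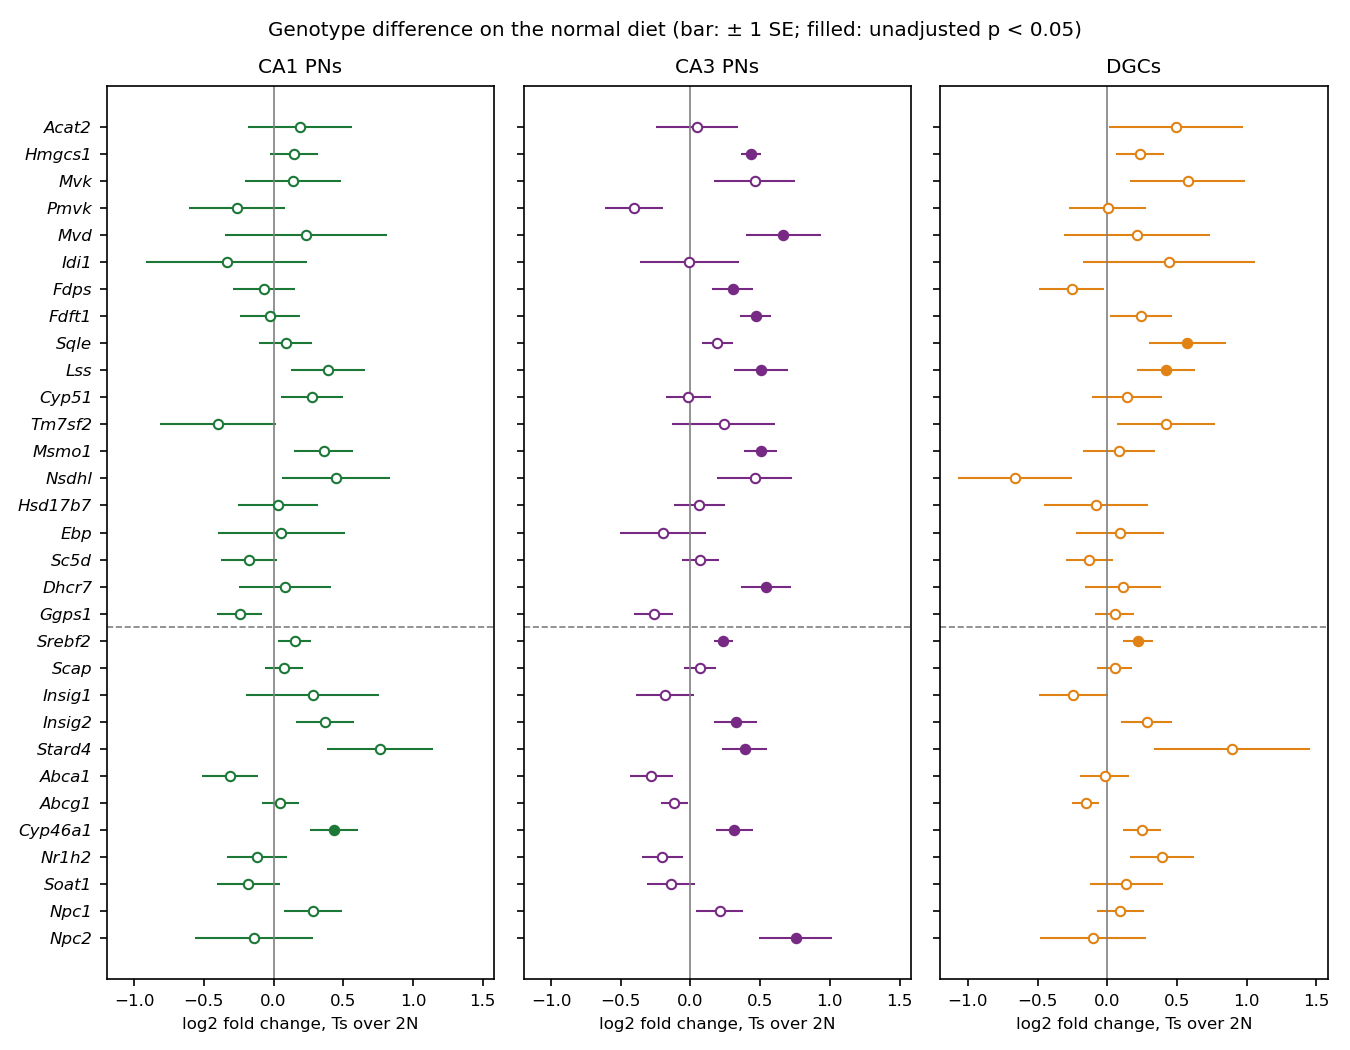
LFC of Ts over 2N on the normal diet for the 31 members in each population, with ± 1 SE as bars, filled where the unadjusted p was below 0.05 and with synthesis enzymes above the dashed line. CA3 PNs hold 12 filled points, all to the right of 0, against 1 in CA1 PNs and 3 in DGCs.

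The supplemented diet gave a separate set of mice in which to compare the genotypes. In CA3 PNs 4 of the 31 members were DEGs, against 4.99% of all genes tested, and all were higher in Ts. Hmgcs1 measured 198, 263 and 282 CPM in Ts and 165, 185 and 245 CPM in 2N, with overlap, at an LFC of 0.32 (SE 0.088, adjusted p = 0.15). Fdft1 measured 78.5, 99.2 and 118 CPM in Ts and 40.3, 80.5 and 99.8 CPM in 2N (LFC 0.34, SE 0.134, adjusted p = 0.76). Srebf2 measured 233, 284 and 300.0 CPM in Ts and 224, 237 and 292 CPM in 2N, and 6 of 7 Ts libraries were above the 2N median (LFC 0.18, SE 0.074, adjusted p = 0.797). The remaining DEG was Acat2, which joins acetyl-CoA units, at 7.15, 10.5 and 11.8 CPM in Ts and 1.83, 5.42 and 11.1 CPM in 2N (LFC 0.71, SE 0.297, adjusted p = 0.818). None passed after adjustment. Of the 12 members called on the normal diet, 10 had an LFC above 0 here and 3 were DEGs, with a median LFC of 0.18, and the median of the other 19 was 0.05. Without 15-140, whose library held dentate markers, 5 members were DEGs, Stard4 being added.

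**Figure D4:**
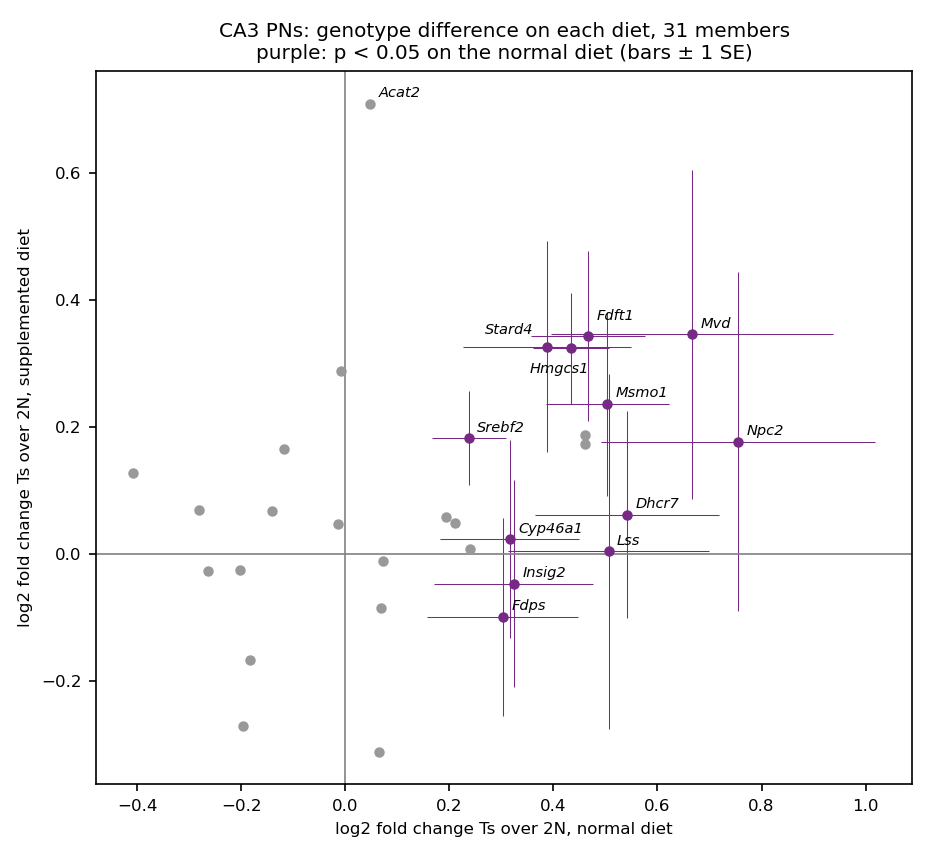
LFC of Ts over 2N in CA3 PNs on the normal diet (horizontal) and on the supplemented diet (vertical) for the 31 members, with those called on the normal diet in purple with ± 1 SE. Of those 12, 10 lie above 0 on the supplemented diet, and Hmgcs1, Fdft1 and Srebf2 were called on both diets.

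In CA1 PNs on the supplemented diet 4 members were DEGs, against 3.60% of all genes tested, again all higher in Ts. Msmo1 measured 28.0, 33.5 and 47.7 CPM in Ts and 10.2, 25.1 and 31.2 CPM in 2N (LFC 0.61, SE 0.189, adjusted p = 0.792). Srebf2 measured 202, 212 and 234 CPM in Ts and 132, 172 and 206 CPM in 2N, and 8 of 9 Ts libraries were above all 2N libraries (LFC 0.29, SE 0.094, adjusted p = 0.943). Fdft1 measured 31.4, 45.1 and 50.9 CPM in Ts and 25.1, 33.6 and 39.6 CPM in 2N (LFC 0.44, SE 0.146, adjusted p = 0.943). Stard4 was low, at 2.95, 10.04 and 17.7 CPM in Ts and 1.46, 6.83 and 10.1 CPM in 2N (LFC 0.95, SE 0.388, adjusted p = 1). All 4 had also been DEGs in CA3 PNs on the normal diet, and all 12 of those CA3 members had an LFC above 0 here, with a median of 0.32 beside -0.04 for the other 19. The 4 remained DEGs without 16-272 and without 15-336, whose CA1 markers were low, and also with the CA2 score as a covariate, when 6 members were called.

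In DGCs on the supplemented diet 6 members were DEGs, against 7.60% of all genes tested, 5 higher and 1 lower. Sqle measured 3.34, 14.0 and 25.7 CPM in Ts and 3.12, 8.92 and 16.6 CPM in 2N (LFC 0.77, SE 0.313, adjusted p = 0.449). Srebf2 measured 97.8, 127 and 159.7 CPM in Ts and 66.6, 104 and 128 CPM in 2N (LFC 0.25, SE 0.105, adjusted p = 0.464). Both repeated their direction of the normal diet, with groups that overlapped. Cyp51 measured 13.3, 19.2 and 29.3 CPM in Ts and 8.66, 16.1 and 26.7 CPM in 2N (LFC 0.51, SE 0.233, adjusted p = 0.558). Msmo1 measured 5.60, 15.3 and 21.0 CPM in Ts and 5.77, 9.51 and 13.5 CPM in 2N (LFC 0.58, SE 0.277, adjusted p = 0.612). Mvk, which phosphorylates mevalonate, measured 4.30, 9.13 and 13.4 CPM in Ts and 2.08, 5.35 and 8.77 CPM in 2N (LFC 0.71, SE 0.357, adjusted p = 0.653). The groups of these 3 genes also overlapped. The call of Mvk was lost in all 4 alternatives, which called 3 members (DESeq2, without Cyp51 and Msmo1 too) or 5. Nsdhl went the other way, at 2.80, 6.44 and 10.8 CPM in Ts and 4.39, 10.7 and 14.9 CPM in 2N (LFC -0.78, SE 0.322, adjusted p = 0.461). Summed astrocyte markers were also higher in these Ts libraries (204, 257 and 303 CPM against 167, 194 and 227 CPM), as were inhibitory neuron markers (229, 277 and 327 CPM against 170, 215 and 255 CPM), and their part was not tested. All 12 DEGs of CA3 PNs on the normal diet had an LFC above 0 here and 2 were DEGs, with a median of 0.18. Of the other 19 members, 11 had an LFC above 0, with a median of 0.03. Among these 19, 3 were DEGs higher in Ts, and Nsdhl was the DEG lower in Ts. On this diet the median LFC of the members was 0.14 for CA1 PNs, 0.06 for CA3 PNs and 0.07 for DGCs, beside 0.01, 0.00 and 0.01 for all genes.

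Over the 6 genotype comparisons 17 members were called at least once and 14 never, and 29 of the 30 calls were higher in Ts. Srebf2 was called most often. It passed in 5 of 6 comparisons, one of which, DGCs on the normal diet, did not hold in 12 of 21 alternatives, and in the remaining comparison, CA1 PNs on the normal diet, all 5 Ts libraries were above the 2N median. The LFC of Srebf2 lay between 0.15 and 0.29 in all 6. Fdft1 and Msmo1 were each called in 3 comparisons, and 10 members had an LFC above 0 in all 6. These counts over the 6 comparisons were not made for all genes tested, of which 3.60% to 9.20% were called in a single comparison. The 3 populations of a diet came from the same mice, so the 6 comparisons are not independent. Averaging the genotype difference over both diets in 1 fit, a choice made after the results of each diet had been seen, 3 members passed adjustment in CA3 PNs, against 0.676% of all genes. They were Hmgcs1 (LFC 0.38 ± 0.058, adjusted p = 2.25e-06), Srebf2 (LFC 0.21 ± 0.052, adjusted p = 0.0219) and Fdft1 (LFC 0.41 ± 0.095, adjusted p = 0.0233), and Msmo1 had an adjusted p of 0.0547. The same average gave 0 members after adjustment in CA1 PNs (0.173% of all genes) and in DGCs (1.32% of all genes), with 4 (4.9% of all genes) and 5 (10.5%) at an unadjusted p below 0.05. Srebf2 was among these in both, at an LFC of 0.23 (SE 0.071, adjusted p = 0.464) in CA1 PNs and 0.24 (SE 0.075, adjusted p = 0.0834) in DGCs.

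**Figure D5:**
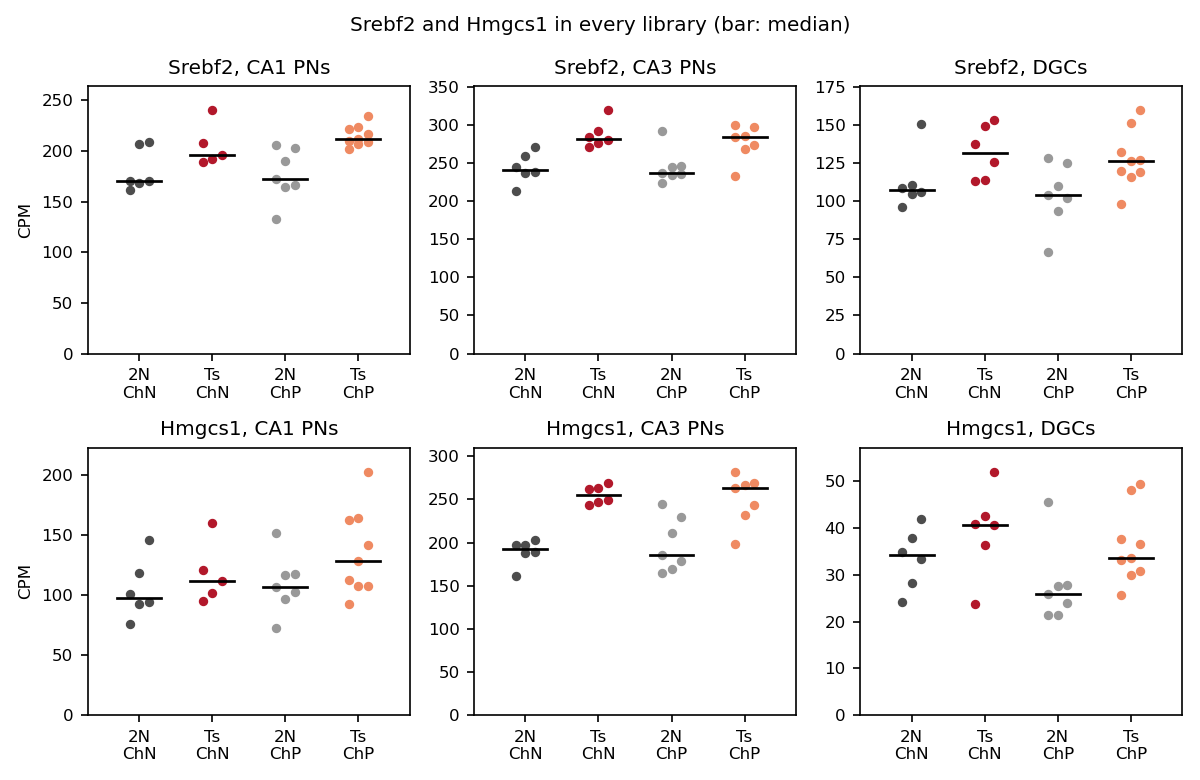
CPM of Srebf2 and Hmgcs1 in every library by population, genotype and diet, with the median as a bar, scaled within each population. The Ts median of Srebf2 is above the 2N median in all 6 pairs of groups, and Hmgcs1 shows no overlap between genotypes in CA3 PNs on the normal diet alone.

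Whether the genotype difference itself varied by population was tested in 1 fit of the 35 ChN libraries. For CA1 PNs minus CA3 PNs 0 of 31 members passed at an unadjusted p below 0.05 by edgeR, against 4.22% of all genes, and for CA1 PNs minus DGCs 0 passed, against 5.51%. For CA3 PNs minus DGCs 3 passed, against 5.18%. These were Nsdhl (difference in LFC 1.12, SE 0.489), Nr1h2 (-0.62, SE 0.272) and Fdps (0.55, SE 0.269), all with an adjusted p of 0.935 or more. The call of Fdps was lost with mouse as a block (0.52) and that of Nr1h2 with 15-145 under its own label (-0.53, SE 0.276). For CA1 PNs minus DGCs, Nsdhl passed with the block (1.18, SE 0.584), with library totals and without 17-154. In this fit Hmgcs1 differed by -0.27 (SE 0.178) between CA1 PNs and CA3 PNs and Fdft1 by -0.48 (SE 0.246), while the differences of Srebf2 were -0.07, -0.06 and 0.01 for the 3 pairs of populations. Of the 12 DEGs of CA3 PNs only Fdps passed, for CA3 PNs minus DGCs but not for CA1 PNs minus CA3 PNs. A genotype effect particular to CA3 PNs, against both other populations, was therefore not detected for any of the 12.

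The maternal diet had few effects on the members, none past adjustment. In 2N mice 1 member was a DEG in CA1 PNs (ChP over ChN, 3.27% of all genes), 2 in CA3 PNs (4.90%) and 0 in DGCs (5.82%). Npc1 was higher on the supplemented diet in CA1 PNs, at 26.2, 31.1 and 36.4 CPM against 14.2, 22.8 and 33.0 CPM (LFC 0.42, SE 0.179, adjusted p = 1), and stayed the 1 DEG without 17-21, 17-154 or 15-336. In CA3 PNs Dhcr7 was higher, at 18.2, 25.0 and 36.6 CPM against 12.4, 18.3 and 27.5 CPM (LFC 0.38, SE 0.174, adjusted p = 0.98). Abcg1, the exporter, was lower there at 59.5, 72.6 and 93.5 CPM against 80.8, 84.5 and 100.5 CPM (LFC -0.23, SE 0.103, adjusted p = 0.98). The ranges of both diets overlapped for these 3 genes.

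In Ts mice 1 member was a DEG by diet in CA1 PNs (3.05% of all genes), 2 in CA3 PNs (4.19%) and 2 in DGCs (3.81%). Fdft1 was higher in CA1 PNs on the supplemented diet, at 31.4, 45.1 and 50.9 CPM against 23.2, 33.2, 34.0, 37.4 and 41.2 CPM in the 5 ChN libraries (LFC 0.35, SE 0.171, adjusted p = 1). It was the 1 DEG, and leaving out any of 16-357, 17-157, 17-173, 15-140, 15-199 or 15-36 brought the count to 0. In CA3 PNs Fdps fell to 24.7, 31.3 and 43.4 CPM from 35.4, 40.8 and 62.9 CPM (LFC -0.45, SE 0.151, adjusted p = 0.999). Lss fell to 7.53, 14.8 and 27.5 CPM from 19.1, 21.8 and 32.9 CPM (LFC -0.52, SE 0.23, adjusted p = 0.999). The highest ChN value of both genes was that of mouse 16-357. In DGCs Insig1, the other retention factor of SREBP2, measured 11.2, 19.0 and 24.5 CPM against 9.59, 12.2 and 21.3 CPM (LFC 0.47, SE 0.229, adjusted p = 0.999). Cyp46a1 was lower on the supplemented diet in DGCs, at 58.8, 73.2 and 107 CPM against 63.1, 91.8 and 129 CPM (LFC -0.32, SE 0.123, adjusted p = 0.999). The groups overlapped for these genes too.

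The test of the genotype difference on the supplemented diet minus that on the normal diet called 0 members in CA1 PNs (3.22% of all genes), 1 in CA3 PNs (4.87%) and 0 in DGCs (3.97%). The 1 member was Abcg1 in CA3 PNs. On the normal diet it measured 71.8, 80.7 and 86.3 CPM in Ts and 80.8, 84.5 and 100.5 CPM in 2N, and on the supplemented diet 66.6, 84.6 and 93.6 CPM in Ts and 59.5, 72.6 and 93.5 CPM in 2N. Its medians were lower in Ts on the normal diet and higher on the supplemented diet, with overlap on both, and the difference in LFC was 0.29 (SE 0.145, adjusted p = 0.996). The call was lost in 2 of 3 alternatives, with library totals (0.27) and without 15-140 (0.27, SE 0.149).

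Few genes near the pathway were DEGs in CA3 PNs. Of 33 other tested genes of cholesterol handling, 1 was a DEG on the normal diet, against 9.20% of all genes, and the median LFC was -0.02. Of 11 genes of fatty acid synthesis and desaturation 1 was a DEG, the elongase Elovl5, which was lower in Ts (LFC -0.44, adjusted p = 0.468). On the supplemented diet 3 of 33 and 2 of 12 were DEGs, against 4.99% of all genes, among them the lipid transporter Abca2, which was lower in Ts (LFC -0.27, adjusted p = 0.247). In DGCs on that diet 2 of 33 and 2 of 10 were DEGs, against 7.60% of all genes, with the desaturase Scd2 higher in Ts (LFC 0.23, adjusted p = 0.247). Between CA3 PNs and DGCs 17 of 33 other cholesterol genes were called (14 higher in CA3 PNs) and 9 of 11 fatty acid genes (8 higher), against 43.7% of all genes tested.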

How the data were processed

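Reads were, according to the authors' methods and the submitters' processing notes, trimmed with Trimmomatic (0.39), mapped with STAR to the GRCm39 build and counted by RSEM, with quality checked by FastQC (0.11.9) and Picard (2.26.2). The authors deposited expected counts per gene and library without normalization, and TPM, which RSEM scales for transcript length, beside them. The use of strand in counting is not given in the sources used here, and 11 members share exons with a gene on the opposite strand and 1 (Tm7sf2) with a gene on the same strand. Expected counts were rounded to whole numbers, and a gene entered a fit where at least 10 of its libraries exceeded 0.1 CPM. Tests were two-sided robust quasi-likelihood tests after TMM scaling in edgeR (4.0.16, under R 4.3.3). SE is the size of the LFC divided by the square root of the F statistic. A genotype, diet or interaction call is an unadjusted p below 0.05, the study's threshold, and a population call an adjusted p below 0.05. Adjusted p is the Benjamini-Hochberg value over all genes tested. CPM were scaled by TMM within a population. Covariates of the study's own fits were left out. The tests were checked on simulated data with known changes.

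The members and lists were chosen with earlier results of these data known. All 31 members are accounted for. Values are given for those called in a genotype, diet or interaction comparison, in full for at most 10 per comparison by smallest p, and for the 3 at each end of the order of TPM. Other pathway genes were named from their calls, and some are not reported here. Groups follow the labels, except that the CA3 library of mouse 15-145, labelled Ts, was counted as 2N, the label that its CA1 and DGC libraries carry. The same mice gave the 3 populations, so libraries with the same number are paired by mouse. In 34 pairs of normal-diet libraries of 1 mouse, residuals over 7660 genes correlated with a median of 0.089 (-0.015 to 0.183), and in 374 pairs of different mice with a median of -0.008. Alternatives were DESeq2 (1.42.0), limma-voom (limma 3.58.1), library totals, other filters, other libraries in the fit, 1 surrogate variable (sva 3.50.0), glial scores as covariates, mouse as a block and leaving out libraries. The average over both diets, the CA2 score as a covariate and the omission of libraries that stand apart on the supplemented diet or in diet and interaction tests were added after the data had been seen. Library totals of 358355 to 4744036 set the precision of low genes. Each mouse gave 1 library per population, so within a population p-values measure the spread between mice together with that of capture and library. The main tests between populations did not use the pairing by mouse, which entered only with mouse as a block. Dam and litter were not modelled.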

Additional observations from a re-analysis of the deposited data

Results flagged for a closer look

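For the members called in a genotype comparison, 60 combinations of gene and group were examined for a library far from the rest. Of these, 6 were found, where chance gives about 1 in 20. Calls by diet or interaction alone were not examined in this way. Hmgcs1 in CA3 PNs of 2N ChN mice was lowest in mouse 17-21, at 160.8 CPM against 187.6 to 202.5 CPM in the others. In CA3 PNs of Ts ChN mice, mouse 16-357 was highest for Lss (32.89 CPM against 19.13 to 22.48 CPM) and for Fdps (62.87 CPM against 35.41 to 41.27 CPM). Srebf2 was highest in mouse 15-336 in CA3 PNs of 2N ChP mice (291.5 CPM against 224.0 to 246.6 CPM) and in mouse 17-56 in DGCs of 2N ChN mice (150.8 CPM against 96.50 to 110.8 CPM). Nsdhl in DGCs of 2N ChP mice was lowest in mouse 14-125, at 4.386 CPM against 10.58 to 14.90 CPM.

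The genotype difference itself differed for 4 members at an unadjusted p below 0.05 in edgeR's test of the difference, with adjusted p from 0.935 to 0.996. Between the diets in CA3 PNs, the LFC of Abcg1 was higher on the supplemented diet by 0.293, and the call was lost with library totals and without 15-140. Between CA3 PNs and DGCs on the normal diet, the LFC was higher in CA3 PNs by 0.545 for Fdps and by 1.122 for Nsdhl. For Nr1h2 the same difference was -0.618, with the LFC lower in CA3 PNs.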

How the results depend on the processing

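No result changed sign where it was called. Over the 46 population differences of named members 304 of 322 alternative values kept their side of the threshold, and over the 42 other named values 396 of 483 did. In CA1 PNs on the normal diet, the 1 DEG among the members became 2 with library totals, limma-voom or the CA2 score as a covariate (added after the data had been seen) and 4 with 1 surrogate variable or the average of both diets, and 0 to 4 when 1 library was left out. In DGCs on the normal diet the 3 DEGs became 0 with DESeq2, 5 with the average of both diets and 1 with glial covariates, and 0 to 3 when 1 library was left out (0 without 15-145 or 15-147). In DGCs on the supplemented diet 6 became 3 with DESeq2. For diet in Ts CA1 PNs the 1 DEG became 0 with library totals and 0 to 2 when 1 library was left out, and for diet in 2N CA3 PNs 2 became 1 with 2N libraries only. The test of the genotype difference between the diets gave 0 to 2 members in CA1 PNs (2 without 15-336). In CA3 PNs the same test gave 0 without 15-140. For CA3 PNs on the normal diet, 1 member passed adjustment with both diets in 1 fit, with limma-voom and without 17-153, 17-157, 17-192 or 17-21. The causes were not tested.

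With mouse as a replicate block, 13 members differed between CA1 PNs and CA3 PNs, DGCs differed from CA1 PNs in 12 members and from CA3 PNs in 20. For the genotype difference between CA1 PNs and DGCs the block and library totals each gave 1 member in place of 0, and leaving out 1 library gave 0 to 1 there and between CA1 PNs and CA3 PNs. Between CA3 PNs and DGCs the block took away the call of Fdps. Depth limits the precision of the 9 members with a median expected count under 10.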
